A study of Mus musculus with 6 samples.

Results

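The cells described here are the germ cells of the XX mouse gonad on the embryonic days named E12.5 and E13.5, and the comparison is of E13.5 against E12.5. A barcode was taken as a germ cell when it held at least 500 detected genes, at most 10% mitochondrial (mt-) UMIs, a UMI in at least 3 of the 7 genes Dazl, Ddx4, Dppa3, Dppa5a, Pou5f1, Sycp3 and Mael, and at least 5 UMIs of these 7 in sum. A UMI, or unique molecular identifier, stands for 1 captured transcript. This gave 604 germ cells among the 3249 cells kept at E12.5 (18.6%, exact 95% interval 17.3% to 19.97%) and 1477 among the 4566 kept at E13.5 (32.3%, 30.99% to 33.7%), in all 2081 of the 29398 barcodes deposited in 6 libraries. Both groups are XX gonads of ICR embryos that carry no genetic change or treatment named in the labels, and the cells were freed with papain before droplet capture on the 10x Chromium 3′ v2 system. The series also holds E10.5, E11.5 and E14.5 XX gonads and a library named Induced D6, of gonadal somatic cells derived in culture from 129svj x C57BL/6J ES cells. There was 1 library per stage. The labels do not say how many embryos entered a library, and stage, litter and library preparation cannot be told apart. No test across replicates was therefore possible, and every interval below covers counting error only.

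Between these days XX germ cells leave mitotic division for the first meiotic prophase. Retinoic acid and BMP signals from the soma are known to act on them, STRA8 together with MEIOSIN switches on the genes of meiotic chromosomes, and the pluripotency genes carried since germ cell specification are shut off. In meiotic prophase the sister chromatids are held by meiotic cohesins along a protein axis, programmed double-strand breaks are made and repaired from the homologous chromosome, telomeres attach to the nuclear envelope, and the synaptonemal complex zips the homologues together.

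The label was checked against germ cell genes that the rule did not use. All 15 such markers, among them Dnd1, Nanos3, Tfap2c, Kit and Tdrd5, stood higher in the germ cells than in cells with few germ cell UMIs in both libraries. The latter, used throughout as the comparison from the same library, are the 2633 cells at E12.5 and 2749 at E13.5 with at most 1 of the 7 genes and at most 2 of their UMIs. Summed over the germ cells there were 10872805 UMIs at E12.5 and 22526526 at E13.5, with medians of 17414.5 and 14127 UMIs and 3861 and 3721 genes per cell. The 7 genes of the rule held a median of 78.5 UMIs per germ cell at E12.5 and 44 at E13.5. At the edge of the rule, 6 germ cells at E12.5 and 33 at E13.5 had 5 to 9 of these UMIs, while 3 and 58 cells failed it narrowly, with 3 of the genes but under 5 UMIs or with only 2 of the genes and at least 5 UMIs. The libraries shared 27 barcodes, 3 of them germ cells in both.

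RNA of other gonadal cells was present in the germ cell sums and differed between the libraries. The 12 supporting-lineage markers, which include Fst, Wnt4, Wt1 and Gata4, summed to 60.7 CPM, UMIs of a gene per 1000000 UMIs of the sum, in germ cells at E12.5 and 211 CPM at E13.5, a ratio of 3.48 (3.20 to 3.78). These sums were 2.79% and 9.18% of those in cells with few germ cell UMIs, and none of the 12 was at 0 in either germ cell sum. The 9 stroma markers went from 27.1 to 97.04 CPM and the 9 erythroid markers from 332 to 663 CPM. Endothelial markers went the other way, from 83.8 to 54.2 CPM, as did leukocyte markers, from 20.7 to 3.06 CPM. Relative to cells with few germ cell UMIs, the endothelial sums were 56.9% and 36.0%, and the leukocyte sums 56.7% and 5.20%. The 6 mesonephros markers, at 30.7 and 21.2 CPM, stood above those cells, at 261% and 197% of their level. Apart from leukocyte markers at E13.5, these shares exceed those of the supporting markers. Whether germ cells themselves express some of these genes was not tested. Among the defining markers, Upk1b (mesothelium) and Emcn (endothelium) were at 0 in germ cells at E12.5 and Ptprc (leukocyte) was at 0 at E13.5. Dazl, in turn, had 1.03 and 11.3 CPM in cells with few germ cell UMIs, though the rule for those cells limits it. At least 3 of 10 somatic markers were found in 23 of the 604 and 121 of the 1477 germ cells. For most named genes far below the surrounding cells that level is given, and apart from the subtraction described below the part of this RNA in the results was not tested.

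Germ cells at E13.5 were set apart from those at E12.5 by higher levels of genes of meiotic chromosomes and lower levels of pluripotency genes. CPM were compared for the 6056 genes with at least 20 CPM in either germ cell sum, leaving out the 7 genes of the rule. Of these, 753 stood higher at E13.5 by 2-fold or more (12.4%) and 317 lower (5.23%), and 116 and 29 passed 4-fold. Counts past 2-fold within a list are to be read beside these 2-fold shares. A gene far under 20 CPM in a sum was compared only through the other sum, and its direction was then fixed by the minimum. Among others this holds upward for Taf7l, Sycp2, Figla, Cdkn2a, Ccnd2, Dlk1, Btg2 and Junb, and downward for Nanog, Morc1 and Etv4. It holds also for genes marked so below. Over all genes compared the median log2 ratio was 0.12 (quartiles -0.31 and 0.61). Scaling mattered for the balance of directions: with ratios counted from that median 619 genes were higher and 407 lower, and with TMM factors, which weight abundant genes, the median was -0.21 and 376 genes were higher and 657 lower. In cells with few germ cell UMIs 130 of 5761 genes compared stood higher by 2-fold or more and 259 lower, with a median of -0.16. Of the 387 germ cell genes past 2-fold upward that could also be compared there, 32 were at least 2-fold higher in those cells too, and of the 204 past 2-fold downward 71 were also at least 2-fold lower there. The plot of CPM at the 2 stages shows most meiosis members above the diagonal and the pluripotency members past 2-fold below it.

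**Figure D1:**
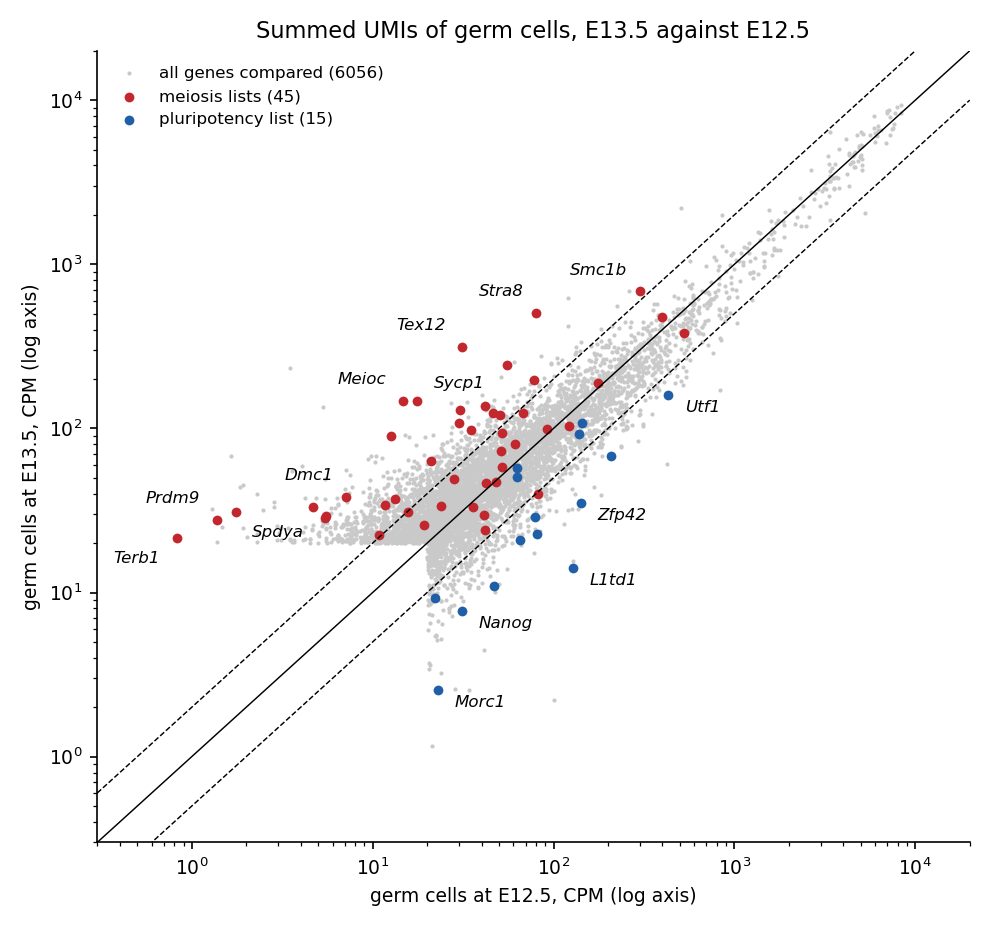
Summed CPM of 6056 genes in germ cells at E12.5 (horizontal) and E13.5 (vertical), both on log axes, with members of the 5 meiosis lists in red and of the pluripotency list in blue. The solid line marks equal levels and the dashed lines 2-fold. Stra8, Tex12 and Meioc lie above the upper dashed line, and Nanog, L1td1 and Morc1 below the lower one.

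Stra8 and Meioc led the regulators of meiotic entry at E13.5. Of the 11 members compared, 5 were at least 2-fold higher and 0 lower, with a median log2 ratio of 0.86. Stra8 (chr6:34920163-34939344 in GRCm38), the gatekeeper of meiotic entry, stood at 79.8 CPM at E12.5 (exact Poisson interval 74.6 to 85.3, 868 UMIs) and 504 CPM at E13.5 (495 to 514, 11360 UMIs), 6.32-fold higher (5.90 to 6.78). Meioc (chr11:102663716-102682237), whose product works with YTHDC2 to end the mitotic programme, had 14.6 CPM (12.4 to 17.1) and 147 CPM (142 to 152) and was 10.03-fold higher (8.55 to 11.8). For both genes the gap between the libraries is far wider than counting error, and cells with few germ cell UMIs had at most 6.81 CPM of either gene. Gm4969, now known as Meiosin and the partner of STRA8, was scarce, with 5 UMIs at E12.5 and 136 at E13.5 (0.46 and 6.04 CPM), a ratio of 13.1 (5.49 to 41.1). It stayed under the 20 CPM needed to be counted. Msx1, a homeobox gene downstream of BMP, was 3.01-fold higher (2.62 to 3.48) at 20.97 and 63.2 CPM, and its level in cells with few germ cell UMIs was 38.4 and 24.6 CPM. Zglp1, a BMP-driven activator of the oogenic programme, had the opposite order at low levels, 12.8 and 4.57 CPM, and was 2.80-fold lower (2.15 to 3.64).

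Genes of the chromosome axis and its cohesins were mostly higher. Among 10 compared, 5 were at least 2-fold higher and 1 lower, with a median log2 ratio of 1.09. Rec8, the meiotic kleisin of cohesin, stood at 34.8 CPM at E12.5 and 98.4 CPM at E13.5, 2.83-fold higher (2.54 to 3.17). Smc1b, its meiotic SMC partner, had the smallest ratio of the 5, with 299 and 685 CPM, 2.29-fold higher (2.21 to 2.38). With TMM factors its log2 ratio was 0.90, under 2-fold. Stag3, a cohesin subunit found in germ cells, had 46.3 and 123 CPM (2.67-fold higher, interval 2.43 to 2.94), and Hormad1, which marks unsynapsed axes, had 30.1 and 108 CPM (3.59-fold higher, interval 3.20 to 4.04). Sycp2, an axis component, was 7.06-fold higher (5.31 to 9.57) at 4.69 and 33.1 CPM. The member past 2-fold downward was Sgo2a, a protector of centromeric cohesion that also serves mitosis, at 82.3 and 39.7 CPM.

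Nearly all compared genes of the synaptonemal complex were higher. Of 8 members 7 were at least 2-fold higher and 0 lower, and the median log2 ratio was 1.92. Tex12, part of the central element, stood at 31.3 CPM at E12.5 and 313 CPM at E13.5, 10.02-fold higher (8.98 to 11.2). Sycp1, the transverse filament that spans the complex, had 17.7 and 147 CPM and was 8.34-fold higher (7.21 to 9.70). Syce3, another central element gene, was 3.28-fold higher (2.97 to 3.63) at 41.6 and 136 CPM, and 4930447C04Rik, known as Six6os1, was 4.38-fold higher (4.03 to 4.77) at 55.6 and 244 CPM. These genes were not at their highest at E13.5: at E14.5, germ cells chosen by the same rule held 921 CPM of Tex12, 1082 CPM of Sycp1 and 974.5 CPM of Syce3.

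Genes of double-strand breaks and recombination were also among the higher genes. Of 13 compared, 7 were at least 2-fold higher and 0 lower, with a median log2 ratio of 1.04. Prdm9, Dmc1 and Hfm1 were so far under 20 CPM at E12.5 that being compared meant at least 2-fold higher. M1ap also reached 20 CPM only at E13.5. Prdm9, the histone methyltransferase that places recombination hotspots, stood at 1.38 CPM at E12.5 and 27.7 CPM at E13.5 (15 and 623 UMIs), 20.05-fold higher (12.1 to 36.04). The small E12.5 count makes this interval wide. M1ap, a meiosis gene needed for break repair, had 12.6 and 90.2 CPM and was 7.16-fold higher (6.02 to 8.58). Dmc1, the meiotic strand exchange protein, had 7.08 and 38.1 CPM (5.38-fold higher, interval 4.26 to 6.89). Hfm1, a crossover helicase, had 5.43 and 28.6 CPM (5.27-fold higher, interval 4.03 to 7.0), and Tex15, which acts in repair and in transposon silencing, had 30.3 and 129 CPM (4.28-fold higher, interval 3.82 to 4.81). Spo11, the enzyme that cuts the DNA, was still low, at 6.35 and 11.3 CPM, with a ratio of 1.78 (1.36 to 2.36); it did not reach 20 CPM. Among 6 genes of telomere attachment 4 were at least 2-fold higher and 0 lower (median log2 ratio 1.93). Terb1, Spdya and Terb2 were so far under 20 CPM at E12.5 that being compared meant at least 2-fold higher. Cdk2 also reached 20 CPM only at E13.5. Terb1, which ties telomeres to the envelope, had 9 UMIs at E12.5 and 485 at E13.5 (0.828 and 21.5 CPM) and was 26.01-fold higher (13.6 to 57.2). Spdya, the activator of CDK2 at telomeres, was 17.6-fold higher (11.2 to 29.5) at 1.75 and 30.8 CPM, and Terb2, the partner of TERB1, was 5.28-fold higher (4.05 to 6.99) at 5.52 and 29.1 CPM. Cdk2 itself was 2.77-fold higher (2.32 to 3.33) at 13.3 and 36.9 CPM, next to 17.7 and 32.1 CPM in cells with few germ cell UMIs, while Sun1, the envelope anchor, stayed within 2-fold at 24 and 33.6 CPM.

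Promoters of several of these genes are shown because the genes stood higher together. They come from RefSeq on GRCm38.p6, with 250 bases before to 50 after each start, and 81.1% of the 753 higher genes and 81.4% of the genes compared had an entry. CNCCTCAG has been described at promoters bound by STRA8 and MEIOSIN, CACGTG is the E-box read by MYC and MGA with MAX, and TTCCCGC is an E2F-type site. Both strands were searched. A match to CNCCTCAG was found in 16.7% of the 808 promoters of higher genes, in 9.99% of those of all genes compared and in 7.94% of all 32851 promoters. CACGTG was found in 8.42%, 11.3% and 7.15%, and TTCCCGC in 9.65%, 9.84% and 4.60%. Over all higher genes, the share with CNCCTCAG stood above that of the genes compared and the other shares did not. For the lower genes the check is void, since 71.9% had an entry. Of the 25 meiosis-list genes at least 2-fold higher 22 had an entry, and 8 held CNCCTCAG (36.4% of genes, against 11.8% of the genes compared), 8 TTCCCGC (36.4% against 11.8%) and 5 CACGTG (22.7% against 13.2%). In this small set each of the 3 shares stood above that of the genes compared. Matches in the windows of Prdm9 (chr17:15564358-15564425, minus strand), M1ap (chr6:82946781-82946848, plus strand), Hfm1 (chr5:106925919-106925986, minus strand) and Figla (chr6:86017070-86017137, plus strand) are given on the strand of the gene, with the match to CNCCTCAG or its reverse complement in capitals.
Prdm9: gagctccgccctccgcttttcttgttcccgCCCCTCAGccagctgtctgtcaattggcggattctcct
M1ap: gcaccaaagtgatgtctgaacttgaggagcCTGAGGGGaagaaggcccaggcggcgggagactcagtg
Hfm1: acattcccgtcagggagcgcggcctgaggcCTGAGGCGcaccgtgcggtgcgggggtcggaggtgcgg
Figla: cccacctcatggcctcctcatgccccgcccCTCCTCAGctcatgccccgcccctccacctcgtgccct
The Hfm1 and Figla windows, and that of Meioc shown next, lie at RefSeq starts inside the span that the GENCODE annotation gives these genes. Prdm9, Hfm1 and Figla each hold a second CNCCTCAG match, and in the Prdm9 promoter a TTCCCGC match overlaps the one shown. Matches to the other motifs are shown for Sycp1 (chr3:102936159-102936224, minus strand) and Tex12 (chr9:50561326-50561391, minus strand) with CACGTG, and Meioc (chr11:102665335-102665393, plus strand) and Smc1b (chr15:85131969-85132035, minus strand) with TTCCCGC or its reverse complement, again in capitals. Sycp1 and Tex12 also hold CNCCTCAG elsewhere in their promoters, outside the stretches shown, and Tex12 also TTCCCGC.
Sycp1: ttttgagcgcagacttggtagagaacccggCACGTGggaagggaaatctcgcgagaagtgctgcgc
Tex12: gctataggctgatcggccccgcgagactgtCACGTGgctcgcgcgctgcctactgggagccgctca
Meioc: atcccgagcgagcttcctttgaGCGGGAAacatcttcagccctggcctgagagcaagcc
Smc1b: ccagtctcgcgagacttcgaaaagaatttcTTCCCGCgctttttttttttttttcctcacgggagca
The Stra8 promoter held none of the 3 strings in this window. A match is a string of letters and shows no binding, and a missing match says only that the letters are not in this window.

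Pluripotency genes were lower at E13.5. Of 15 compared, 11 were at least 2-fold lower and 0 higher, and the median log2 ratio was -1.61. L1td1 (chr4:98726734-98738480), an RNA-binding protein of pluripotent cells, stood at 128 CPM at E12.5 and 14.03 CPM at E13.5, 9.09-fold lower (8.04 to 10.3). That was the largest ratio downward among genes at 50 CPM or more, leaving out clone-type gene names. Nanog (chr6:122707489-122714633), a core pluripotency factor, stood at 31.2 CPM (27.9 to 34.7) and 7.68 CPM (6.58 to 8.91) and was 4.06-fold lower (3.37 to 4.90). Zfp42, also known as Rex1, was 4.05-fold lower (3.72 to 4.42) at 142 and 34.9 CPM, Gdf3, a TGF-beta family ligand, was 4.27-fold lower (3.66 to 4.99) at 47.00 and 11.01 CPM, and Morc1, a germline repressor of transposons placed in this list, was 9.05-fold lower (6.76 to 12.3) at 22.9 and 2.53 CPM. Utf1, a chromatin factor of pluripotent cells, was 2.70-fold lower (2.58 to 2.82) but still held 159.7 CPM at E13.5 after 431 CPM at E12.5. Sox2 differed less than the others named, at 138 and 92.8 CPM, with a ratio of 0.673 (0.63 to 0.72), and stayed within 2-fold. In cells with few germ cell UMIs Nanog and Sox2 had at most 1.25 CPM. Utf1 had 21.02 and 4.14 CPM there and was 5.08-fold lower at E13.5, so its difference was present in both kinds of cell. Of the genes of the rule, used here as a description only, Pou5f1 had 509.6 and 233 CPM, Dppa3 1151 and 515 CPM and Dppa5a 2005 and 708 CPM, whereas Sycp3 had 84.3 and 391 CPM, Dazl 728 and 955 CPM, Ddx4 112 and 199 CPM and Mael 84.98 and 189 CPM.

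The wider list of germ cell identity and RNA-binding genes was split. Of 24 compared, 6 were at least 2-fold higher and 5 lower, with a median log2 ratio of 0.10, near that of all genes. On the lower side stood Dnd1, Nanos3, Tfap2c, Tdrd12 and Mns1. Dnd1, an RNA-binding protein that protects germ cells, stood at 168 CPM at E12.5 and 43.6 CPM at E13.5, 3.85-fold lower (3.57 to 4.17). Nanos3, needed for survival of migrating germ cells, had 38.1 and 10.8 CPM and was 3.53-fold lower (3.01 to 4.15), and cells with few germ cell UMIs had 6.56 and 6.98 CPM of it. Tfap2c, a specification factor, was 2.16-fold lower (1.89 to 2.46) at 43.9 and 20.3 CPM. Prdm1, which specifies germ cells, stayed within 2-fold at 25.5 and 20.4 CPM, as did Kit, the receptor for stem cell factor, at 62.4 and 51.9 CPM. Both were lower a day later, at 4.36 CPM and 9.03 CPM at E14.5. On the higher side stood Taf7l, Figla, Tex101, Ddx25, Piwil2 and Gtsf1. Taf7l (chrX:134460118-134476490), a germ cell TFIID subunit encoded on the X, had 5.33 CPM at E12.5 and 135 CPM at E13.5 (58 and 3052 UMIs) and was 25.4-fold higher (19.6 to 33.5). No other gene at 50 CPM or more had a larger ratio upward, leaving out haemoglobins. Its level in cells with few germ cell UMIs was 20.4 and 8.06 CPM. Figla, the transcription factor of the oocyte's zona pellucida genes, was 12.46-fold higher (8.70 to 18.5) at 2.85 and 35.5 CPM, and Tex101, a germ cell surface glycoprotein, was 4.03-fold higher (3.69 to 4.41) at 51.3 and 207 CPM.

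Across the 4 stages that held at least 50 germ cells, the members of the pluripotency list named above stood lower at each later stage. Dppa3, a gene of the rule, did not, at 1140 CPM at E11.5 and 1151 CPM at E12.5. The 4 meiosis genes that follow were highest at E13.5 or E14.5. These are levels of 1 library each. Stra8 stood at 1.53, 79.8, 504 and 386 CPM in order of stage, starting at E11.5, so that E13.5 was its highest stage. Rec8 was also highest at E13.5 but lower at E14.5 than at E12.5, at 7.09, 34.8, 98.4 and 19.3 CPM. Prdm9 stood at 0.556, 1.38, 27.7 and 283 CPM and Terb1 at 0.139, 0.828, 21.5 and 141 CPM, both highest at E14.5. Nanog was at 49.9, 31.2, 7.68 and 0.153 CPM. Sox2, within 2-fold between E12.5 and E13.5, went from 187 CPM at E11.5 to 8.41 CPM at E14.5. Adjacent steps share a library, so no ratio is set against another.

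**Figure D2:**
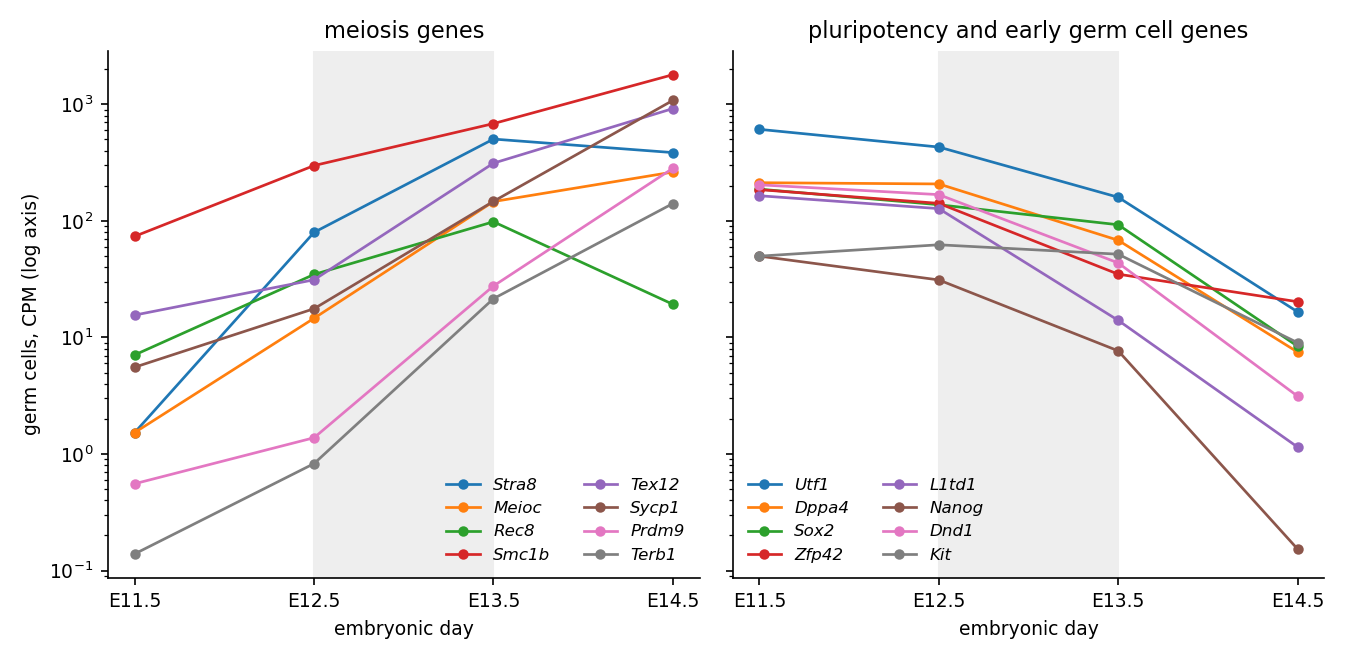
CPM in germ cells at the 4 stages on a log axis, 1 library per point, for 8 meiosis genes (left) and 8 pluripotency and early germ cell genes (right), with the interval from E12.5 to E13.5 shaded. Stra8 and Rec8 were highest at E13.5, while Sycp1, Prdm9 and Terb1 were highest at E14.5 and Nanog lowest there.

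Within single cells the 2 groups of genes overlapped at E13.5. Each cell was thinned to 5000 UMIs so that depth was equal, which left out 29 germ cells at E12.5 and 55 at E13.5. A Stra8 UMI was then found in 23.7% (20.2% to 27.3%) of 575 cells at E12.5 and 80.7% (78.5% to 82.7%) of 1422 cells at E13.5, against 0.328% (0.0083% to 1.81%) at E11.5 and 63.8% (60.9% to 66.7%) at E14.5. Without thinning the shares at E12.5 and E13.5 were 42.4% and 93.4%. Endothelial cells, which should lack the gene, held Stra8 in 0% of 71 cells and 2.15% of 93 cells after the same thinning (median depths before it 18593 and 17827 UMIs), and cells with few germ cell UMIs held it in 0.0407% and 3.63%. For 0 of 71 cells a share of up to 4.23% is allowed. Meioc was found in 8.0% (5.92% to 10.53%) and 48.7% (46.1% to 51.4%) of germ cells, Sycp1 in 6.61% (4.72% to 8.96%) and 42.1% (39.5% to 44.7%). The shares with pluripotency transcripts were smaller at E13.5. Utf1 was found in 88.3% (85.4% to 90.9%) and 47.5% (44.9% to 50.2%), Nanog in 16.3% (13.4% to 19.6%) and 3.59% (2.68% to 4.69%), and Sox2 in 47.5% (43.3% to 51.7%) and 32.8% (30.4% to 35.4%). All of these intervals lie apart between the stages. In endothelial cells Nanog was found in 1 of 71 and 0 of 93, the latter allowing up to 3.23%, which lies inside the germ cell interval at E13.5, and Sox2 and Utf1 in 0 of 71 and 0 of 93. Cells with few germ cell UMIs held Nanog in 0.0815% and 0.121%, Sox2 in 0.163% and 0.807%, and Utf1 in 7.86% and 2.34%.

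At E13.5, cells with a Stra8 UMI still held transcripts of Utf1 and Sox2. Utf1 was found in 44.8% (41.9% to 47.7%) of the 1147 cells with Stra8 and in 58.9% (52.8% to 64.8%) of the 275 without, and Sox2 in 32.6% (29.9% to 35.4%) and 33.8% (28.2% to 39.7%). The Utf1 intervals lie apart and the Sox2 intervals overlap. Nanog was found in 2.79% (1.92% to 3.92%) and 6.91% (4.21% to 10.6%), the first of which is under the endothelial limit. Sycp1 was more frequent with Stra8, in 47.6% (44.7% to 50.5%) against 19.3% (14.8% to 24.4%). At E12.5, among the 136 cells with Stra8, Utf1 was in 84.6% (77.4% to 90.2%) and Sycp1 in 16.2% (10.4% to 23.5%), and among the 439 without Stra8 they were in 89.5% (86.3% to 92.2%) and 3.64% (2.10% to 5.85%). Counted over 53 meiosis genes, the median cell held 4, 6, 11 and 22 at the 4 stages in order, with quartiles of 8 and 15 at E13.5. Of the 24 pluripotency genes the median cell held 7, 6, 3 and 0 from E11.5 to E14.5. The 5th and 95th percentiles of the meiosis count were 2 and 10 genes at E12.5, 5 and 22 a day later, and 12 and 28 on the last day, so the stages overlapped at their edges. Cells with few germ cell UMIs had a median of 1 meiosis gene at both E12.5 and E13.5. Cells of 1 library are not replicates of a stage.

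**Figure D3:**
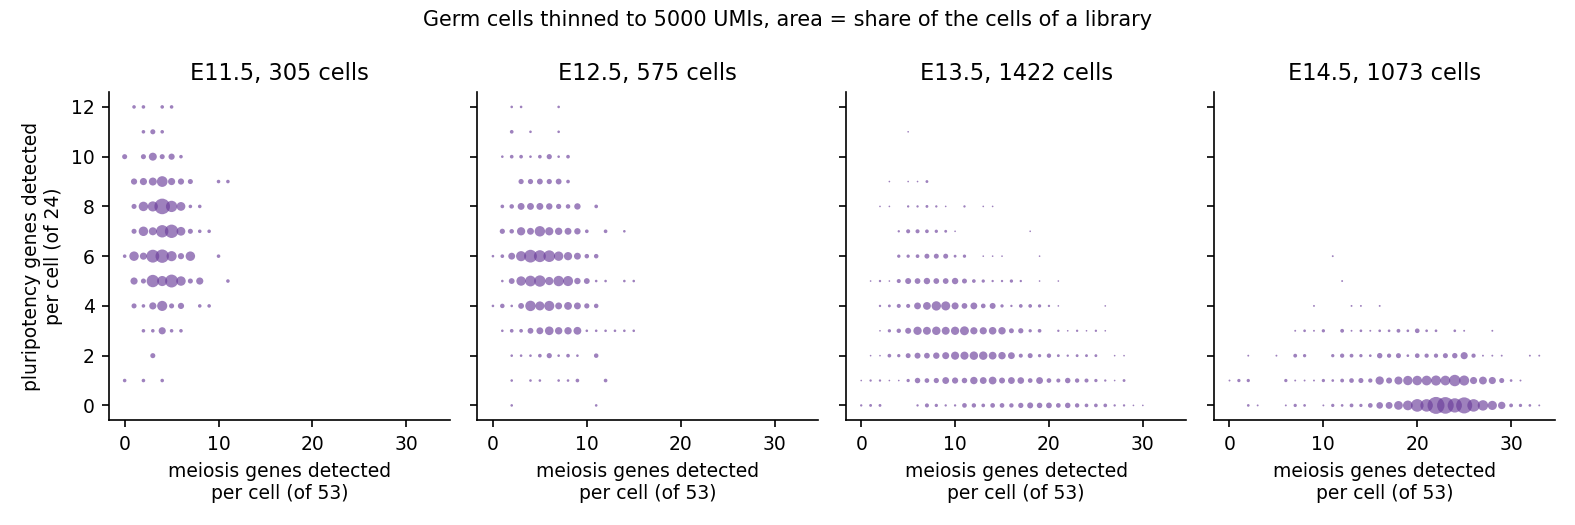
Number of meiosis genes (of 53, horizontal) and of pluripotency genes (of 24, vertical) with a UMI in each germ cell thinned to 5000 UMIs, in 4 panels by stage. The area of a point is the share of that library's cells. The E13.5 cells lie between the E12.5 cells, with median counts of 6 and 6, and the E14.5 cells, with medians of 22 and 0.

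X-linked genes stood higher relative to autosomal genes at E13.5. In XX germ cells of these days the inactive X is known to be reactivated while Xist, the RNA that coats it, is lost. The median log2 ratio was 0.37 for the 222 X-linked genes compared and 0.11 for the 5818 autosomal genes, and the medians of single autosomes ran from 0.03 to 0.22. Of the X-linked genes 53 stood higher by 2-fold or more and 12 lower, against 698 and 303 of the 5818 autosomal genes. In cells with few germ cell UMIs the X and autosome medians were -0.21 and -0.16. The gap of 0.26 between X and autosomes kept its sign in all 17 alternative settings, from 0.13 among genes with at least 50 CPM to 0.36 without a minimum level, including TMM factors. Tsc22d3, a leucine zipper protein induced by glucocorticoids, was 14.6-fold higher (10.8 to 20.1) at 4.05 and 58.95 CPM, next to 22.2 and 44.99 CPM in cells with few germ cell UMIs. Xlr4a, of a lymphoid-regulated family with near-identical copies whose reads may be divided among them, was 6.52-fold higher (5.38 to 7.95) at 10.48 and 68.3 CPM. Xist itself had 33.1 CPM at E12.5 and 144 CPM at E13.5 in germ cells and was 4.36-fold higher (3.91 to 4.87), but cells with few germ cell UMIs held 1259 and 2329 CPM. After thinning a Xist UMI was found in 5.04% (3.40% to 7.16%) and 16.03% (14.2% to 18.05%) of germ cells and in 96.7% and 98.95% of cells with few germ cell UMIs. When the profile of the latter cells was subtracted at the supporting-marker share, 0 CPM of Xist remained at both stages. No direction is therefore read from Xist. The only gene placed on the Y that was compared was Gm47283, at 201 and 317 CPM.

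**Figure D4:**
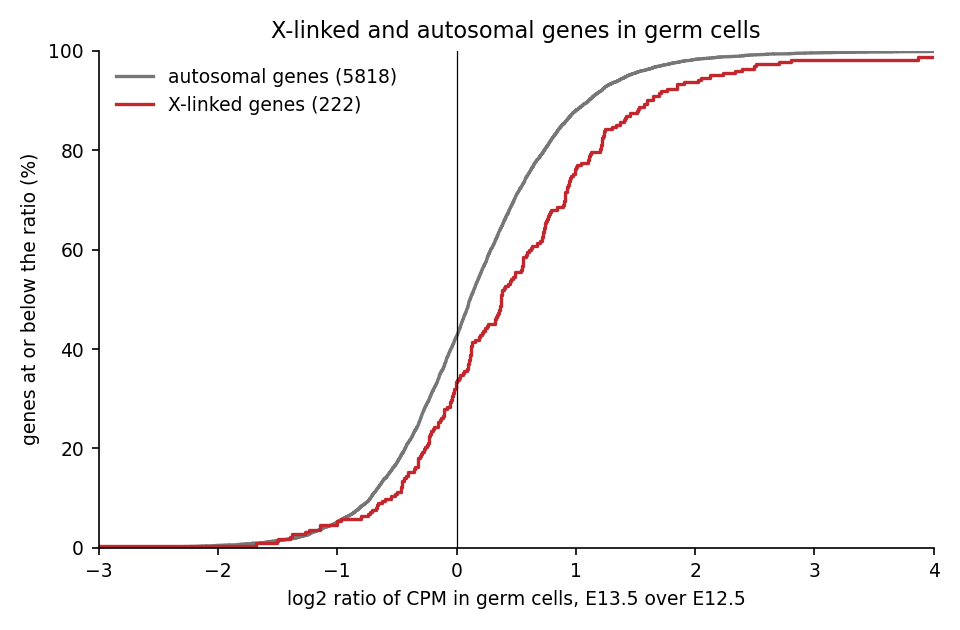
Cumulative share of genes (vertical, percent) at or below a log2 ratio of CPM between E13.5 and E12.5 in germ cells (horizontal), for 222 X-linked genes (red) and 5818 autosomal genes (grey). The X-linked curve lies to the right of the autosomal curve over most of its range, with medians of 0.37 and 0.11.

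The Rhox homeobox genes, an X-linked cluster active in germ cells and placenta, went mostly the other way. Of 6 compared, 3 were at least 2-fold lower and 1 higher, with a median log2 ratio of -0.78. Rhox9 stood at 838 CPM at E12.5 and 347 CPM at E13.5, 2.41-fold lower (2.34 to 2.49), Rhox6 was 2.60-fold lower (2.50 to 2.71) at 509 and 195 CPM, and Rhox5 was 2.22-fold lower (2.15 to 2.29) at 711 and 321 CPM. Rhox13, the member above 2-fold, was 2.97-fold higher (2.52 to 3.52) at 15.5 and 46.2 CPM. Cells with few germ cell UMIs held at most 8.60 CPM of these 4 genes. Near-identical copies within the cluster can share reads, so the division among members is uncertain.

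The medians of the mitosis and S phase lists were below 0 in both kinds of cell, though most members stayed within 2-fold. Of 26 genes of G2 and mitosis 0 were at least 2-fold higher and 5 lower in germ cells (median log2 ratio -0.56), and the median in cells with few germ cell UMIs was -0.93. The mitotic kinase gene Aurkb stood at 27.9 CPM at E12.5 and 10.52 CPM at E13.5, 2.65-fold lower (2.23 to 3.15), and Cdc20, an activator of the anaphase-promoting complex, was 2.31-fold lower (2.17 to 2.46) at 185 and 80.2 CPM. Cdk1 and Ccnb1, the kinase and cyclin of mitotic entry, lay at the edge of the 2-fold rule, 2.01-fold lower (1.86 to 2.17) and 2.01-fold lower (1.89 to 2.13). Mki67, a marker of cycling cells, stayed within 2-fold at 78.5 and 57.6 CPM. Of 23 S phase genes 2 were higher and 2 lower (median -0.50, and -0.86 in cells with few germ cell UMIs). Tyms, which makes thymidylate, was 2.69-fold lower (2.50 to 2.90) at 149 and 55.5 CPM, and Pcna, the replication clamp, was 2.29-fold lower (2.12 to 2.48) at 123 and 53.8 CPM. Against these stood Ccne2, an S phase cyclin, 5.83-fold higher (4.85 to 7.06) at 11.3 and 65.9 CPM, and Uhrf1, which brings DNMT1 to replicated DNA, 2.31-fold higher (1.99 to 2.70) at 18.8 and 43.4 CPM. Uhrf1 in cells with few germ cell UMIs was 42.7 and 31.2 CPM, so its germ cell level lay below theirs at E12.5 and above it at E13.5. Among 11 cyclins and cell cycle inhibitors 4 were at least 2-fold higher and 0 lower. Ccnd2, a G1 cyclin among the 4, had 9.29 and 27.1 CPM against 313 and 289 CPM in cells with few germ cell UMIs, and its log2 ratio went from 1.55 to 0.12 when their profile was subtracted. Cdkn2a, which encodes p16 and p19Arf, had 14 UMIs at E12.5 and 726 at E13.5 (1.29 and 32.2 CPM) and was 25.03-fold higher (14.8 to 46.01), after 16.3 CPM at E11.5. Rb1, the retinoblastoma gene, was 2.35-fold higher (2.01 to 2.74) at 18.5 and 43.4 CPM, and Ccnd1, another G1 cyclin, was 2.65-fold higher (2.31 to 3.04) at 22.9 and 60.6 CPM, against 42.5 and 24.02 CPM in the other cells. With TMM factors Rb1 and Uhrf1 were under 2-fold, at log2 ratios of 0.94 and 0.92. Trp53, the p53 gene, was 4.17-fold lower (3.82 to 4.57) at 136 and 32.5 CPM, the only 1 of 7 apoptosis genes past 2-fold, and it also stood lower in cells with few germ cell UMIs (157 and 66.7 CPM).

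Among the metabolic lists glycolysis had the most members past 2-fold. Of 15 genes 4 were at least 2-fold lower and 0 higher (median log2 ratio -0.71), with a median of -0.54 in cells with few germ cell UMIs. Pkm, pyruvate kinase, stood at 539.5 CPM at E12.5 and 223 CPM at E13.5, 2.42-fold lower (2.33 to 2.52), Eno1, enolase, was 2.37-fold lower (2.22 to 2.53) at 182 and 76.7 CPM, and Ldhb, lactate dehydrogenase B, was 2.26-fold lower (2.14 to 2.39) at 243 and 108 CPM. All 3 stood higher and were also lower at E13.5 in cells with few germ cell UMIs, at 603 and 278 CPM for Pkm, 416 and 330.1 CPM for Eno1 and 610.3 and 238 CPM for Ldhb. Tdh, threonine dehydrogenase of mouse pluripotent cells, belongs to the 15 largest ratios downward at 184 and 39.2 CPM (4.69-fold lower, interval 4.33 to 5.08). So does Ckb, brain-type creatine kinase, at 294 and 84.1 CPM (3.49-fold lower, interval 3.30 to 3.70). In cells with few germ cell UMIs Tdh was also lower at E13.5, by 4.30-fold to 2.67 CPM. The Tdh difference was thus present in both kinds of cell. Ckb had 25.3 and 25.4 CPM in those cells. Nuclear-encoded respiratory chain genes differed little, with 1 of 29 lower and 0 higher and a median of -0.11. The exception, Cycs, cytochrome c, lay at the threshold with 542 and 269.9 CPM (2.01-fold lower, interval 1.94 to 2.08). Cholesterol synthesis had 1 of 16 lower, the sterol isomerase Ebp (38.3 and 13.54 CPM, 2.83-fold lower, interval 2.43 to 3.29), 0 higher, and a median of 0.04.

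Target genes of signals to the germ cells gave mixed pictures. No gene of retinoic acid metabolism and response passed 2-fold among the 4 compared. Id4 and Msx1 were the 2 of 10 BMP targets at least 2-fold higher, with 0 lower and a median log2 ratio of 0.45. Id4 had 26.9 and 54.5 CPM, and with TMM factors its log2 ratio was 0.73, under 2-fold. In cells with few germ cell UMIs Id4 had 22.1 and 56.9 CPM and Msx1 38.4 and 24.6 CPM. The median of this list was 0.36 there. Id1, another BMP target, had 171 and 224 CPM, with a ratio of 1.31 (1.24 to 1.39). Of 8 FGF/ERK targets 4 were higher and 2 lower, and the higher ones include Fos and Egr1, which the immediate early list also holds. Fos had 36.2 and 92.6 CPM, against 620 and 723 CPM in cells with few germ cell UMIs. Its log2 ratio went from 1.35 to 0.57, under 2-fold, when their profile was subtracted. Etv4, an ETS factor induced by FGF, was 3.32-fold lower (2.75 to 4.03) at 26.4 and 7.95 CPM, while Spred1, an inhibitor of the pathway, was 2.68-fold higher (2.30 to 3.13) at 18.4 and 49.3 CPM. Of 14 nodal and Wnt targets measured only 5 were compared, and 3 of these were higher and 0 lower. Sp5 and Znrf3 were so far under the level minimum at E12.5 that being compared meant at least 2-fold higher. Nkd1 also reached that minimum only at E13.5. Axin2 and Lef1, which passed it at both stages, stayed within 2-fold. Sp5, a direct Wnt target, was 3.67-fold higher (2.90 to 4.70) at 7.27 and 26.6 CPM, and Nkd1, a Wnt feedback inhibitor, was 2.87-fold higher (2.36 to 3.52) at 10.9 and 31.1 CPM. Both stood below the level in cells with few germ cell UMIs, which was 37.9 and 67.6 CPM at E13.5. After subtraction of the other cells' profile their log2 ratios were still 2.10 and 1.54.

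Several immediate early and imprinted genes were higher in germ cells at E13.5 while standing far below the surrounding cells. Of 12 immediate early and heat shock genes 7 passed 2-fold upward and 1 downward, with a median log2 ratio of 1.31. Egr1, an immediate early transcription factor, had 11.4 CPM at E12.5 and 51.1 CPM at E13.5 in germ cells against 159 and 343 CPM in cells with few germ cell UMIs. Jun had 12.1 and 34.3 CPM against 391 and 379 CPM. After subtraction of the other cells' profile the list median was -0.02. Egr1 stayed higher, with a log2 ratio of 1.59, while Jun, Junb and Btg2 were left at 0 CPM at E13.5 and at 1.27, 4.68 and 0.724 CPM at E12.5, so no fold is read from them. The member at least 2-fold lower was Hsp90aa1, the inducible HSP90 chaperone, at 5258 and 2046 CPM (2.57-fold lower, interval 2.54 to 2.60). It stood above the other cells, where it was also lower at E13.5 (846 and 313 CPM). Of 13 imprinted genes 3 were higher and 1 lower. H19, Dlk1 and Mest were the higher ones, each below its level in cells with few germ cell UMIs. Mest, a paternally expressed gene, had 26.8 and 57.6 CPM against 616 and 573 CPM there, and its log2 ratio turned from 1.11 to -0.84 when their profile was subtracted. H19, a maternally expressed noncoding RNA, had 47.1 and 149 CPM against 969.6 and 1015 CPM there. Phlda2, a maternally expressed growth suppressor, was the lower one, with 371 CPM at E12.5 and 155 CPM at E13.5 (2.39-fold lower, interval 2.28 to 2.50), and at most 5.97 CPM in the other cells.

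The 3 genes of antigen presentation that could be compared were all at least 2-fold higher. H2-K1, a class I heavy chain, stood at 7.08 CPM at E12.5 and 55.6 CPM at E13.5, 7.85-fold higher (6.23 to 10.01), and H2-D1, another, was 17.4-fold higher (11.7 to 27.1) at 2.30 and 40.1 CPM (25 and 903 UMIs). At E14.5 germ cells had 274 CPM of H2-K1 and 311 CPM of H2-D1. In cells with few germ cell UMIs H2-K1 also stood higher at E13.5, at 10.3 and 24.4 CPM. H2-D1 had 22.97 and 20.8 CPM in those cells at E12.5 and E13.5. The list median there was 1.19 over 6 genes compared. Class I genes are near-identical in places and can share reads. B2m, the light chain of class I, had 9.66 and 30.3 CPM, below the 271 and 181 CPM of cells with few germ cell UMIs. Chromatin lists differed little. Of 6 DNA methylation genes 1 was higher, Uhrf1, and 0 lower, with Dnmt3a at 25.1 and 32.5 CPM (other cells 61.6 and 71.2 CPM) and Tet1, which oxidises methylcytosine, at 92.98 and 52.2 CPM, both within 2-fold. Of 17 polycomb and histone methylation genes 2 were higher and 0 lower, Bmi1 (20.97 and 43.7 CPM) and Kdm6a (22.9 and 45.9 CPM), both under 2-fold with TMM factors. Over all genes compared 12.4% were higher and 5.23% lower.

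**Figure D5:**
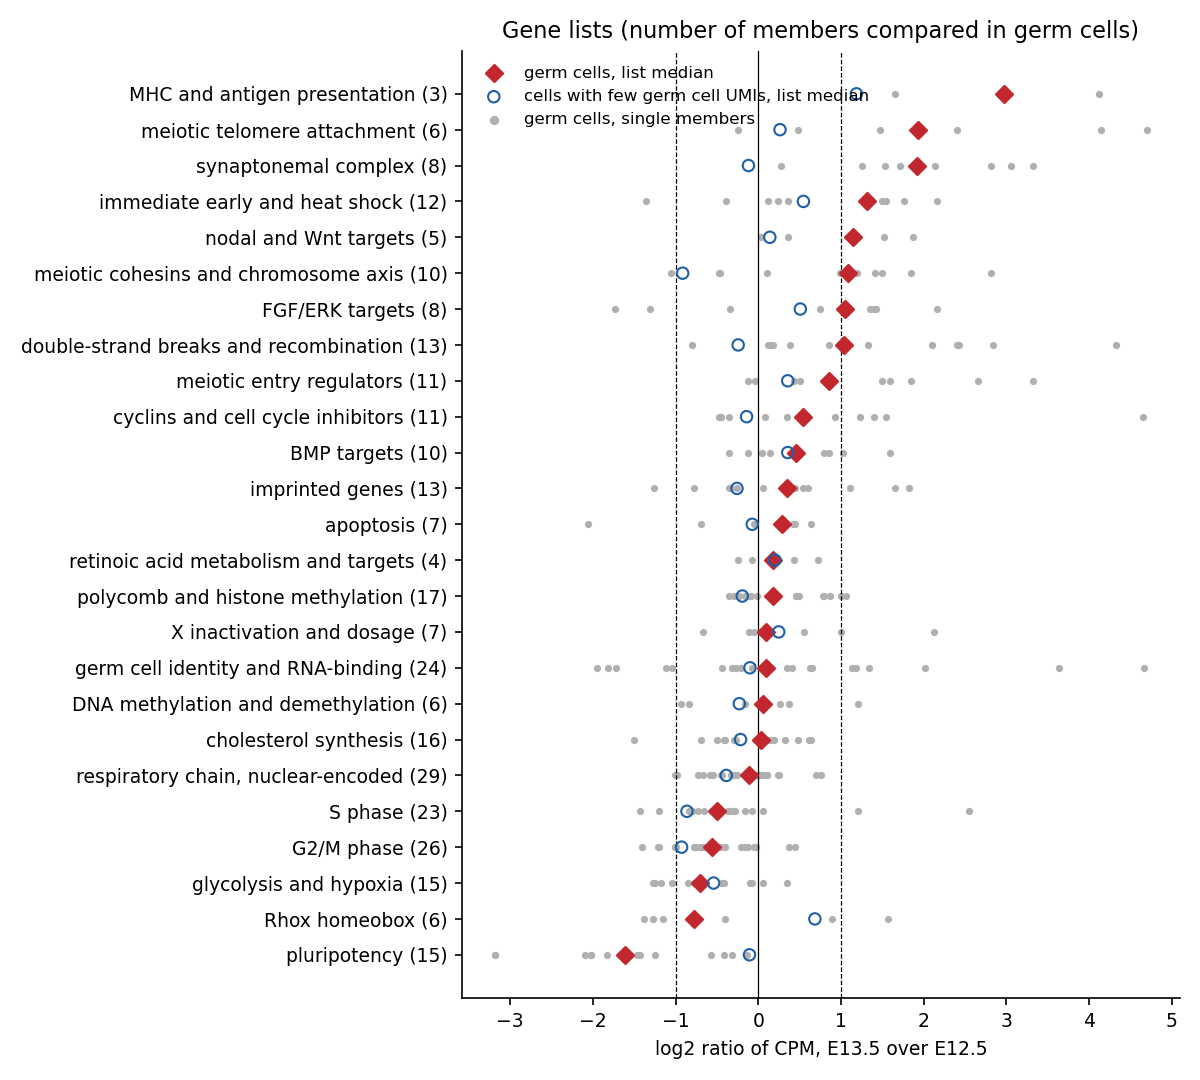
Log2 ratio of CPM, E13.5 over E12.5, for the compared members of 25 gene lists in germ cells (grey points), with the list median in germ cells (red diamonds) and in cells with few germ cell UMIs (blue circles). The dashed lines mark 2-fold. The meiosis lists lie to the right in germ cells, pluripotency to the left, and G2/M, S phase and glycolysis to the left in both kinds of cell.

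The other genes among the 15 largest ratios in each direction at 50 CPM or more belong to varied functions. Upward, Dmrtc2, a DM-domain factor of germ cells, stood at 3.59 CPM at E12.5 and 55.3 CPM at E13.5, 15.4-fold higher (11.2 to 21.8). Pik3r3, a regulatory subunit of PI3 kinase, was 6.97-fold higher (5.72 to 8.56) at 9.75 and 67.9 CPM, and Cyld, a deubiquitinase, was 6.96-fold higher (5.69 to 8.59) at 9.38 and 65.3 CPM. Celf2, an RNA-binding protein, and Nfat5, an osmotic stress factor, were 6.10-fold higher (5.03 to 7.46) and 6.05-fold higher (5.16 to 7.14), with E13.5 levels of 62.8 and 91.3 CPM near the 57.1 and 108 CPM of cells with few germ cell UMIs. At E12.5 those cells had 24.8 CPM of Celf2 and 86.3 CPM of Nfat5. Pik3r3 had 9.13 and 20.2 CPM there, and Cyld 7.86 and 10.2 CPM. Celf2, Nfat5, Pik3r3 and Cyld thus stood higher at E13.5 in both kinds of cell. Downward, the nucleosome-binding protein gene Hmgn5 had 129 and 15.5 CPM (8.31-fold lower, interval 7.38 to 9.37), Wdr89 had 835 and 171 CPM (4.89-fold lower, interval 4.71 to 5.08) and Tpm3-rs7 had 50.2 and 11.3 CPM (4.44-fold lower, interval 3.82 to 5.17). These 3 were lower in cells with few germ cell UMIs too, at 57.5 and 23.8 CPM for Hmgn5, 497 and 124 CPM for Wdr89 and 109 and 38.1 CPM for Tpm3-rs7, so the difference was present in both kinds of cell. Calcoco2, an autophagy receptor, was 4.47-fold lower (3.97 to 5.06) at 78.3 and 17.5 CPM with at most 0.209 CPM in those cells. Below them came Tcl1, a co-activator of AKT (80.9 and 22.7 CPM), the tubulin gene Tuba1c (55.2 and 13.9 CPM), the cytochrome gene Cyb5a (127 and 32.5 CPM, against 313 and 208 CPM in the other cells), the centrosomal gene Cep89 (121 and 31.6 CPM) and the DNA-binding protein gene Arid5b (83.97 and 23.6 CPM). Tuba1c (51.3 and 27.1 CPM), Arid5b (60.4 and 34.8 CPM) and Cep89 (16.6 and 10.4 CPM) were also lower at E13.5 in the other cells. Tcl1 had at most 0.919 CPM there.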

How the data were processed

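XX gonad libraries were measured by droplet single-cell RNA sequencing with the 10x 3′ v2 chemistry. The authors deposited raw UMI counts per gene and barcode for each library, made with Cell Ranger 3.0.2 on mm10 per the submitters' processing notes, and no source used here gives the settings of that step. The counts are not normalized, and the free RNA of a droplet enters them.

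From the counts, germ cells were chosen by the 7-gene rule given above, their UMIs were summed per library and scaled to CPM (UMIs of a gene per 1000000 UMIs of the sum). Genes with at least 20 CPM in either sum were compared and those past 2-fold were counted. With 1 library per stage no test was made. Intervals of ratios and shares are exact binomial and those of CPM exact Poisson, at 95%, and cover counting error only. Where a gene had 0 counts, 3 counts were used as its limit. The calculation was tested on simulated counts. Endothelial cells, with at least 3 endothelial markers and not passing the germ cell rule, gave the background of shares of cells. The limit that defines cells with few germ cell UMIs was not applied to them.

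The members, the 25 gene lists and the rules were chosen with earlier results of these data known. Named genes are the 15 largest ratios in each direction at 50 CPM or more, up to 5 members with the largest ratios per list, a set of key genes and the 7 rule genes. The first of these leaves out mt-, ribosomal protein, haemoglobin and clone-type names. Other names were chosen after their values were seen, and some list members named in the counts fall among them. The 53 meiosis genes are the 5 meiosis lists without members that also act outside meiosis. Doublets were not removed in the values given; the effect of removing the highest Scrublet scores was among the alternatives, which also changed the level minimum, scaling, cell filters, the germ cell rule and the treatment of other cells' RNA. Tools were Python 3.11.15, numpy 2.4.6, scipy 1.17.1, pandas 2.3.3, scanpy 1.11.5, matplotlib 3.10.9 and edgeR 4.0.16, the last for TMM factors only. Gene coordinates are those of GRCm38, 1-based.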

Additional observations from a re-analysis of the deposited data

How the results depend on the processing

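The counts of 753 higher and 317 lower genes depended on the minimum level and on the scaling. With at least 50 CPM they were 261 and 181, with at least 5 CPM 1819 and 502, and without a minimum 4232 and 3710, since these change how many genes are compared. With TMM factors they were 376 and 657. With totals without mt-, ribosomal protein and haemoglobin genes 1148 genes were higher and 366 lower. Under the other alternatives the counts lay between 576 and 837 higher and between 243 and 407 lower. Of 97 named genes past 2-fold, 78 stayed past it the same way in all 13 alternatives run for genes and lists. TMM factors changed the sign of 7 of 25 list medians, those of germ cell identity, DNA methylation, polycomb, cholesterol synthesis, retinoic acid, X inactivation and apoptosis, all within 0.29 of 0, and no direction is given for them. An alternative chosen after seeing the data subtracted the profile of cells with few germ cell UMIs, at 2.79% and 9.18% of their level. It reversed the log2 ratio of Mest to -0.84. It left Btg2, Junb and Jun at 0 CPM at E13.5, so that their values of -2.44, -5.13 and -3.25 are set by the 3-count limit, and it left Xist at 0 CPM at both stages, with no value. It took the median log2 ratio, immediate early and heat shock genes, to -0.0209. The cause was not tested. Removing the highest Scrublet scores took out 22 and 77 germ cells and gave 761 higher and 321 lower genes. No paired analysis was possible because each stage has 1 library. Gm4969, Spo11 and Zglp1 lie below the depth at which genes were counted.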
